A study of Mus musculus with 2 samples.

Results

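Mir144, Mir451a and Mir486 are the 3 microRNA genes most closely tied to red blood cells, and they were followed here in skeletal muscle of newborn mice. They were chosen by name, by matching the Ensembl gene IDs of the count tables to GENCODE symbols, and make up 3 of 1973 microRNA genes. RNA under 30 bases was sequenced from muscle of B6NCrl mice at postnatal day 0, in 2 libraries that form 1 group. Each library came from a portion of muscle of 1 pup, sex not collected, and although the labels number them as separate biological replicates, both cite the same donor record. No condition was compared with another, so the values describe the genes in this tissue and how far replicate 1 differed from replicate 2.

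A microRNA is a short RNA cut from a hairpin precursor, and bases 2 to 8 of it, the seed, do most of the pairing with the messenger RNAs it lowers. Mir144 and Mir451a are made from a single primary transcript that the erythroid factor GATA1 switches on, and in maturing red cells miR-451 is among the most abundant microRNAs. The miR-451 precursor is too short for Dicer and is cut by Argonaute 2 instead, while miR-144 follows the usual Dicer route. Mir486 lies in Ank1, the gene of the ankyrin that ties the red cell membrane to its skeleton. The same gene has a separate muscle promoter, so miR-486 is made both in erythroid cells and in muscle. Muscle carries blood, and its microRNA libraries therefore hold products of red cells as well as of muscle fibres.

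The sequences below are the RefSeq entries (GRCm38.p6) of the members and of the gene antisense to Mir451a, and are shown because they set which reads can be told apart. Mir144 (ENSMUSG00000065401) lies on the plus strand at chr11:78073005-78073070, and Mir451a (ENSMUSG00000070065) starts 99 bases further on, at chr11:78073170-78073241. Between the mature products, capitals mark the seed.
mmu-miR-144-5p: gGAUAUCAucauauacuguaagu
mmu-miR-144-3p: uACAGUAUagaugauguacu
mmu-miR-451a: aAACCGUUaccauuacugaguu
mmu-miR-451b: uGGGAGCAgcaagagaaccgu
None of these seeds recurred among the other mature sequences of the 1738 in the RefSeq table. Over bases 2 to 7 alone, miR-144-3p matched 1 other, miR-101a-3p, and the other 3 matched none. Mir101a had 145 and 108 CPM in replicates 1 and 2, where CPM are counts per 1000000 microRNA counts of the library.

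In the hairpins, capitals mark the mature products.
Mir144: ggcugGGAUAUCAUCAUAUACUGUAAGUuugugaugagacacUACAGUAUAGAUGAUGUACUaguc
Mir451a: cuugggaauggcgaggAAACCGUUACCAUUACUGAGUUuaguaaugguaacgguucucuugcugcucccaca
Mir144 gives a product from each arm, at bases 6 to 28 and 43 to 62 of its 66. The Mir451a product takes bases 17 to 38 of 72. Bases 18 to 33 of that hairpin pair without a mismatch with bases 40 to 55, so the product runs along all of that paired stretch and on into the loop. The tables count reads per hairpin and do not separate the products of the arms.

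Mir486 (ENSMUSG00000070084) lies on the plus strand of chromosome 8, from 23142555 to 23142682 (GRCm38). It sits in an intron of Ank1, which spans 22974844 to 23150497 on the same strand. Mir3107, also called mir-486b, is annotated on the minus strand within it, from 23142573 to 23142662. The noncoding gene Gm15816 also runs antisense across the site. A stretch of 22 bases read on the plus strand at 23142587 to 23142608 is identical to the minus strand at 23142627 to 23142648, and by symmetry the plus strand at the second place matches the minus strand at the first. These stretches are bases 33 to 54 and 73 to 94 of the 128-base Mir486 hairpin, that is, both of its arms. A read that lies within either stretch fits 2 places, and the authors set apart reads that fit more than 1 place. Each stretch is as long as the 22-base miR-451a product, so a read of a whole mature product can fall entirely within one. The counts at Mir486 therefore come from reads that run past these stretches or lie outside them. The Mir486 level is a lower limit, and the size of what is missing, which could exceed what was counted, was not measured. The longest stretch of Mir451a that recurs on its other strand, where Mir451b is annotated, had 16 bases, and Mir144 shared at most 13 bases with any other microRNA gene read in the same direction.

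Replicate 1 held 7955914 and replicate 2 held 10816295 annotated-strand microRNA counts, so that 3 counts, the limit that a count of 0 allows, corresponded to 0.377 and 0.277 CPM. Reads that fit more than 1 place made up 28.0% and 26.9% of all reads. Of the 1973 genes, 365 were detected, with at least 10 counts in both libraries, and all 3 members were among them. To check the tissue label, Mir206, a microRNA specific to skeletal muscle, was read first, and it was the most abundant gene in these counts with 107144 and 120690 CPM. Mir208a, from the cardiac myosin gene Myh6, had 15.5 and 12.1 CPM. Intervals below are 95% exact intervals and cover counting error only.

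Mir451a was the most abundant of the 3 genes, followed by Mir486 and then Mir144. Mir451a had 4362 counts in replicate 1 and 2815 in replicate 2, or 548 CPM (interval 532 to 565) and 260 CPM (251 to 270). Mir486 had 532 and 895 counts, or 66.9 CPM (61.3 to 72.8) and 82.7 CPM (77.4 to 88.3). Mir144 had 275 and 274 counts, or 34.6 CPM (30.6 to 38.9) and 25.3 CPM (22.4 to 28.5). The order of the 3 genes was the same in each library, and the values of neighbouring genes in that order did not overlap. Since Mir486 is a lower limit, its place below Mir451a holds for reads that fit 1 place. Each read stands for a whole short RNA, so counts were compared between genes without scaling for the length of the hairpin. Whether different microRNAs were captured equally well was not measured, so a ratio of counts between genes need not equal a ratio of molecules.

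**Figure D1:**
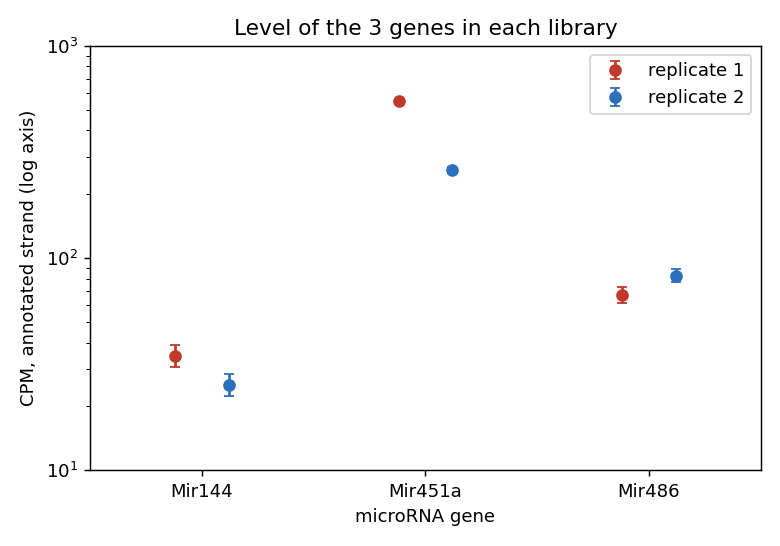
CPM on the annotated strand (log axis) of Mir144, Mir451a and Mir486 in replicate 1 and replicate 2; points are single libraries and bars their 95% exact counting intervals. Mir451a stands highest in both libraries and differs most between them, 548 against 260 CPM. The Mir486 values cover only reads that fit 1 place and are lower limits.

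As means over the 2 libraries, Mir451a had 404 CPM ± 204, Mir486 74.8 ± 11.2 and Mir144 29.9 ± 6.53 (SD, n = 2). These placed Mir451a at rank 128, Mir486 at rank 191 and Mir144 at rank 222 of the 365 detected genes. By these means, Mir486 lay just under, and Mir144 well under, the median gene, which had 87.0 CPM, again among reads that fit 1 place. Within single libraries, Mir486 ranked 198 in replicate 1 and 173 in replicate 2. In its share of all microRNA counts, Mir451a reached 0.0548% in replicate 1 and 0.0260% in replicate 2. Mir486 took 0.00669% and 0.00827%, and Mir144 took 0.00346% and 0.00253%.

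**Figure D2:**
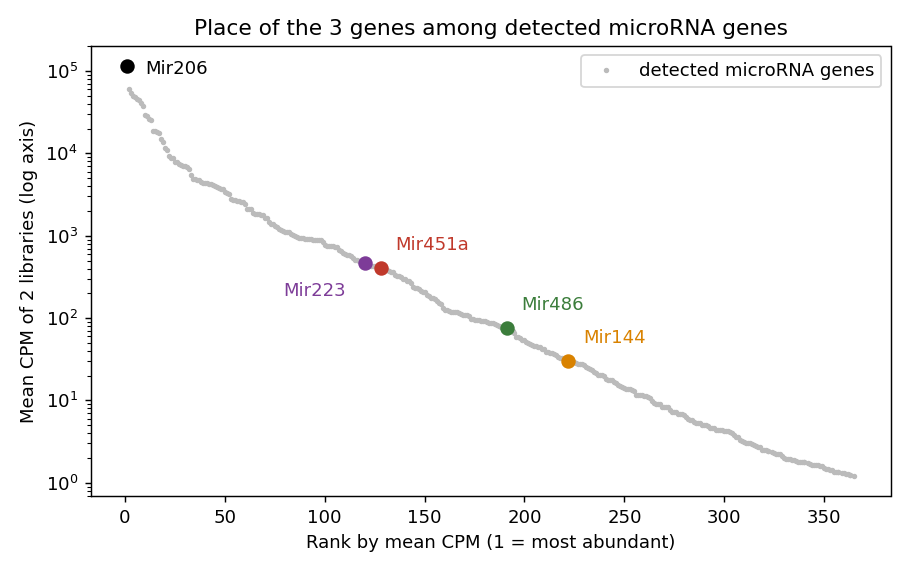
Mean CPM of the 2 libraries (log axis) against rank for the 365 detected microRNA genes, with the 3 genes, the muscle gene Mir206 and the myeloid gene Mir223 marked. Mir451a stands beside Mir223 in the upper middle of the range, and Mir486 and Mir144 stand below it at ranks 191 and 222.

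The genes closest in level and ratio, taken as the 3 smallest distances in log2 CPM over the 2 libraries, were Mir668, Mir708 and Mir350 for Mir451a. For Mir486 they were Mir700, Mir3072 and Mir450-2, and for Mir144 they were Mir1249, Mir193a and Mir505. Of these, Mir708 and Mir450-2 share a stretch of 20 bases with another gene, so their levels are uncertain. Mir144, 99 bases from Mir451a, was not among the neighbours of that gene, and 2 libraries give only 2 points for each distance.

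Among the 3 genes, the libraries differed most in Mir451a. After scaling by trimmed means (TMM), Mir451a was 1.78-fold higher in replicate 1 than in replicate 2, a log2 ratio of 0.83 (interval 0.76 to 0.90). Mir486 was lower in replicate 1, at 0.682 of its level in replicate 2, a log2 ratio of -0.55 (-0.71 to -0.40). This ratio, too, rests on reads that fit 1 place, and any difference between the libraries in the reads set apart was not measured. Mir144 had a log2 ratio of 0.20 (-0.04 to 0.45), an interval that includes 0. Library totals in place of TMM gave 0.45 for Mir144 and -0.31 for Mir486, so which of these is the larger depends on the scaling.

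The counts of a gene in the 2 libraries were compared by a two-sided exact binomial test with Benjamini-Hochberg adjustment over all 365 detected genes. The adjusted p was 1.33e-127 for Mir451a, 3.84e-12 for Mir486 and 0.152 for Mir144. The test sets 1 library against the other, with no error term besides that of counting, and says nothing of a condition. By the adjusted p alone, 2 of the 3 members passed, against 61.1% of all detected genes. Under library totals Mir144 passed as well, with an adjusted binomial p of 5.24e-04 and an interval of 0.20 to 0.70. The share of all detected genes that passed in that way under library totals was not computed. With a minimum difference of 2-fold added, 0 of the 3 passed, against 7.40% of all detected genes. Mir451a reached 2.11-fold when library totals replaced TMM, and then passed, as did 11.5% of all detected genes. The size of its ratio exceeded that of 87.9% of detected genes, while the figure was 75.1% for Mir486 and 34.2% for Mir144.

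**Figure D3:**
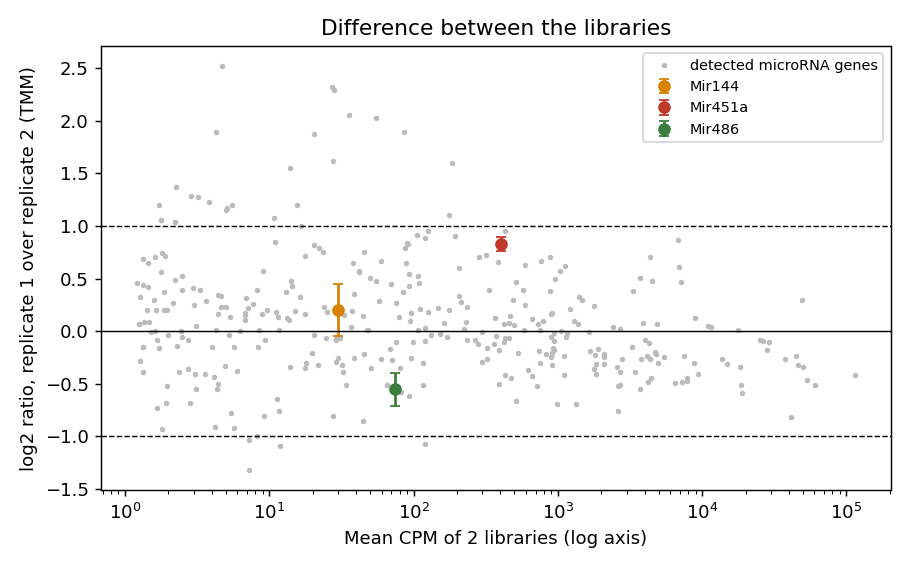
Log2 ratio of replicate 1 over replicate 2 after TMM scaling against mean CPM (log axis) for the 365 detected genes; bars on the 3 marked genes are 95% exact counting intervals and dashed lines mark 2-fold. Mir451a (0.83) and Mir486 (-0.55) lie on opposite sides of 0 and within 2-fold, and the interval of Mir144 includes 0.

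Ratios between genes within a library need no scaling between libraries. Mir451a exceeded its transcript partner Mir144 by 15.9-fold (interval 14.0 to 18.0) in replicate 1 and 10.3-fold (9.07 to 11.7) in replicate 2, and these intervals did not overlap. The products of this single transcript were thus counted in unequal amounts, and in a proportion that was not the same in both libraries. Mir451a exceeded Mir486 by 8.20-fold (7.49 to 8.99) in replicate 1 and 3.15-fold (2.92 to 3.39) in replicate 2, which are upper limits for the reason given for Mir486. Mir144 stood at 0.517 of Mir486 (0.445 to 0.599) in replicate 1 and 0.306 (0.266 to 0.351) in replicate 2. Relative to Mir486, both erythroid cluster genes were thus higher in replicate 1, beyond counting error, among reads that fit 1 place.

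Set against muscle genes, Mir486 and Mir451a differed in how their ratio moved between the libraries. Mir206 exceeded Mir486 by 1602-fold (interval 1472 to 1748) in replicate 1 and 1459-fold (1366 to 1559) in replicate 2, and the intervals overlapped. These are upper limits too. Mir206 exceeded Mir451a by 195-fold (190 to 201) in replicate 1 and 464-fold (447 to 481) in replicate 2, and the intervals were far apart. The log2 ratio of Mir206 between the libraries was -0.42, at a distance of 0.14 from that of Mir486, and 8.79% of the other detected genes lay closer to Mir486. For Mir126a, which is not a muscle gene but an endothelial one, the distance from Mir486 was 0.23, with 17.0% closer.

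Other muscle genes gave a less even picture for Mir486. Against Mir208b, hosted by the slow myosin gene Myh7, Mir486 stood at 0.0913 (0.0834 to 0.0998) in replicate 1 and 0.108 (0.101 to 0.116) in replicate 2. Against Mir499, from the myosin gene Myh7b, it stood at 0.123 (0.112 to 0.134) in replicate 1 and 0.187 (0.174 to 0.201) in replicate 2. Against Mir133b, the neighbour of Mir206, it stood at 0.0795 (0.0727 to 0.0869) in replicate 1 and 0.101 (0.0938 to 0.108) in replicate 2. Mir133b also shares 20 bases with other genes, so this last ratio sets an incomplete count against another and is a limit in neither direction. In these 3 comparisons the intervals did not overlap, and Mir486 was relatively lower in replicate 1 in each.

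Markers of blood and of muscle were summed beside the members. The erythroid list, Mir144 and Mir451a themselves, summed to 583 CPM in replicate 1 and 286 CPM in replicate 2. The leukocyte list had 752 and 546 CPM, with 4 of its 5 genes detected. Among them the myeloid Mir223 had 528 and 403 CPM, with a log2 ratio of 0.14, Mir146 had 118 and 68.4 CPM (0.54), the lymphocyte gene Mir150 had 46.0 and 45.0 CPM (-0.21) and Mir155 had 60.3 and 30.1 CPM (0.76). Their median log2 ratio was 0.34, and 3 of the 4 were above 0. Mir451a equalled 1.04 of Mir223 (0.996 to 1.08) in replicate 1 and 0.646 (0.616 to 0.678) in replicate 2. The fifth gene, Mir142b, had 1 and 0 counts on its annotated strand and 7306 and 6286 on the opposite strand, and the opposite-strand counts are not part of the sum.

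The muscle list summed to 109281 CPM in replicate 1 and 122732 in replicate 2, with 7 of 8 genes detected, 4 of which share a stretch of 20 bases with another gene. After Mir206, its highest genes were Mir133b with 841 and 823 CPM and Mir208b with 732 and 763 CPM. The median log2 ratio of the muscle genes was -0.15, with 3 above and 4 below 0. Mir1a-1 (0.39) and Mir1b (0.56), both of which share 20 bases with another gene, and Mir499 (0.06) were those above. The single cardiac gene, Mir208a, had a log2 ratio of 0.11, and the endothelial gene Mir126a, with 44986 and 47428 CPM, of -0.32. The liver list had 165 and 228 CPM, with 3 of 4 genes detected. It was led by Mir122 (86.4 and 153 CPM), then Mir192 (49.0 and 52.8 CPM) and Mir194-2 (29.0 and 21.5 CPM). Their log2 ratios were -1.07, -0.35 and 0.19. By the adjusted p and 2-fold, Mir122 passed as higher in replicate 2, against 1.10% of all detected genes. No list had a counted gene at 0 in both libraries.

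**Figure D4:**
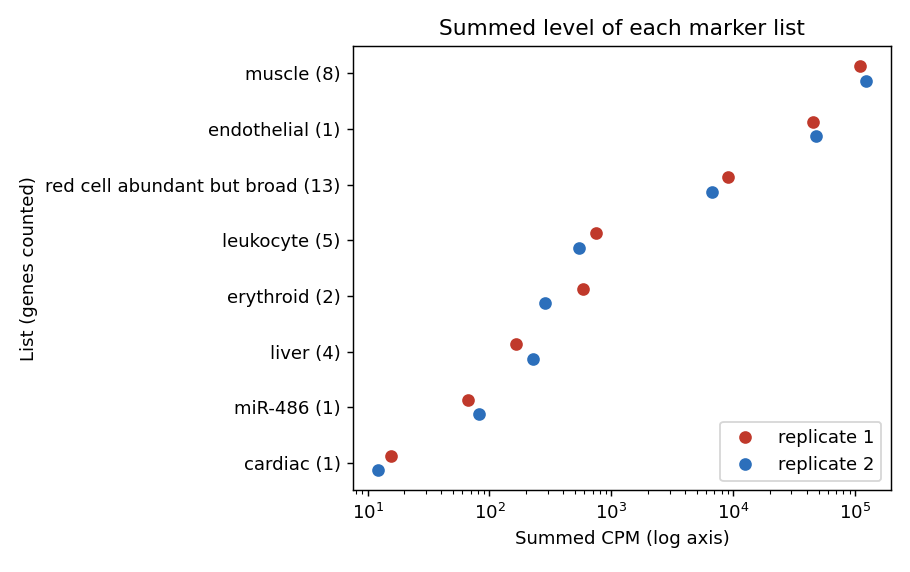
Summed CPM (log axis) of each list in replicate 1 and replicate 2, with the number of genes counted in parentheses; points are single libraries. In CPM, the erythroid pair, most of it Mir451a, has the widest relative gap between the libraries of the lists shown, 583 against 286. The miR-486 point lies to the other side, 66.9 against 82.7 CPM. After TMM scaling, the log2 ratio of the sum was 0.78 for the erythroid pair and -0.71 for the liver list.

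Of 13 microRNAs that are abundant in red cells but made in many tissues, all were detected, with sums of 8962 CPM in replicate 1 and 6726 CPM in replicate 2. The highest were Mir484 with 2123 and 2076 CPM, Mir15a with 1667 and 1121, and Mir93 with 1316 and 746. Their median log2 ratio was 0.19, against 0.01 over all detected genes, with 9 of 13 above 0. By the adjusted p and 2-fold, 2 were higher in replicate 1, against 6.30% of all detected genes. These were Mir16-2 (log2 ratio 1.10), which shares 20 bases with a paralog, and Mir182 (1.89), also a microRNA of sensory and epithelial cells. In the other direction 0 passed, against 1.10% of all detected genes. By the adjusted p alone, 7 stood higher in replicate 1 and 1 in replicate 2, against 30.1% and 31.0% of all detected genes.

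Of the microRNAs linked to red cell formation by other routes, 8 were counted and all were detected. Mir223, Mir150 and Mir155 among them are also in the leukocyte list, and Mir126a is the endothelial gene given above. The median log2 ratio of these 8 was 0.10, with 5 above 0. By the adjusted p and 2-fold 0 passed, against 7.40% of all detected genes. Mir126a was the highest, followed by Mir223 and by the hypoxia-induced Mir210 (470 and 379 CPM). Mir221 (67.7 and 41.1 CPM) and Mir222 (49.4 and 26.6 CPM), which restrain Kit in erythroid precursors, had log2 ratios of 0.47 and 0.65. By the adjusted p alone, 4 of the 8 stood higher in replicate 1 and 2 in replicate 2, against 30.1% and 31.0% of all detected genes.

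Blood in the tissue and muscle fibres can both contribute to Mir486, and in whole muscle more cells of a type and more RNA per cell cannot be told apart. Mir451a and Mir486 had log2 ratios of opposite sign, while Mir144, the other erythroid gene, had 0.20 (interval -0.04 to 0.45). Mir206 and Mir486 had the same sign, as had 173 of the 365 detected genes. Mir126a, 4 of the 7 detected muscle genes and the liver genes Mir122 and Mir192 were among those. Against Mir208b, Mir499 and Mir133b, Mir486 was relatively lower in replicate 1. Mir451a outnumbered Mir486 in both libraries, and all these values of Mir486 rest on reads that fit 1 place. How much of Mir486 came from red cells and how much from muscle was not tested. With 2 libraries, a ratio between them rests on a single difference.

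Counts on the opposite strand set Mir486 apart from the erythroid pair. At Mir486, 61 counts in replicate 1 and 69 in replicate 2 fell on the opposite strand, where Mir3107 is annotated. They made up 10.3% (interval 7.96 to 13.02) and 7.16% (5.61 to 8.97) of the counts of both strands, with a mean of 8.72% ± 2.21 (SD, n = 2). These shares cover only reads that fit 1 place. Mir451a had 1 and 0 opposite-strand counts, although Mir451b is annotated there, and Mir144 had 0 in each library. The exact interval at Mir144 reached 1.33% in replicate 1 and 1.34% in replicate 2.

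Of the 365 genes detected on their annotated strand, 328 had 0 opposite-strand counts in replicate 1 and 338 had 0 in replicate 2. That filter leaves out genes read mainly on the other strand, such as Mir142b. Over all 1973 genes, 10.7% and 11.9% of the counts of both strands fell on the opposite strand. Among detected genes, the share at Mir486 was exceeded by 3 other detected genes in replicate 1 and 4 in replicate 2. Mir299b, Mir1b and Mir3074-1 exceeded it in both and Mir1964 in replicate 2 alone, from 2 counts; these names were picked after their values were seen. With both strands added, Mir486 had a mean of 81.8 CPM among reads that fit 1 place, below that of Mir451a. Reads that fit both strands are in neither count, so this sum is a lower limit too.

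**Figure D5:**
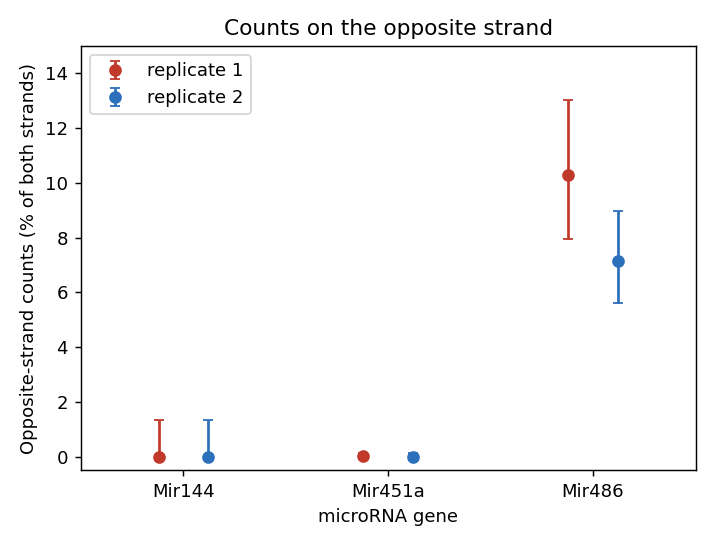
Counts on the opposite strand as a percentage of the counts of both strands at Mir144, Mir451a and Mir486 in replicate 1 and replicate 2; bars are 95% exact binomial intervals. Mir486 has 10.3% and 7.16%, while Mir144 and Mir451a are at or near 0.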

How the data were processed

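The authors deposited raw whole-number counts per microRNA gene and library, for reads on either strand and on each strand alone. The assembly was mm10 and the annotation GENCODE M4, per the file headers in the deposited readme text; which aligner and counter were used is not given in the sources used here. No source names the strand columns; the fuller of them was read as the annotated strand. The 4 rows that name no gene stayed out of library sizes. Among them were unmapped reads, reads outside genes and reads that fit more than 1 place.

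Symbols and coordinates came from GENCODE M21 (GRCm38, the same assembly as mm10) by gene ID without version, for 1894 of 1973 IDs. Mature sequences and hairpins came from RefSeq, where Mir144, Mir451a and Mir451b matched; shared stretches were searched in GENCODE hairpins. CPM used annotated-strand totals, and TMM factors (1.09 and 0.918) came from edgeR 4.0.16 in R 4.3.3. Genes reaching 10 counts in each library entered a two-sided exact binomial test in scipy 1.17.1, adjusted by Benjamini-Hochberg, at 0.05 and 2-fold. The test was tried on counts simulated with counting error alone and scaled by library totals. That is the error the test assumes, so the simulation cannot show how it behaves under wider spread. Named genes were the members, microRNA genes within 1000 bases, up to 3 leading genes per list and the 3 nearest per member. Members, lists and the genes set beside the members in ratios were chosen with earlier results of these data known, and Mir499, Mir1a-1, Mir1b, Mir155, Mir101a, Mir142b, Mir16-2, Mir182, Mir221 and Mir222 were named outside that rule, after their values were seen. Counts on both strands, DESeq2 1.42.0 size factors, library totals, all reads as the total, other count and fold minimums and each replicate left out were tried instead. Mir451b, Mir3107, Mir191, Mir142, Mir1a-2, Mir126b and Mir24-1 were not analysed here as genes of their own. That the libraries came from separate pups is assumed, since both cite the same donor record, and differences between them may be partly technical.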

Additional observations from a re-analysis of the deposited data

Results flagged for a closer look

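Opposite-strand counts at Mir486 lay outside the counts used for its level and were above the limit of 3 counts that a count of 0 allows, with 61 in replicate 1 and 69 in replicate 2. Mir3107 is annotated on that strand. No control samples exist to set them against.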

How the results depend on the processing

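Of 18 log2 ratios of the members recomputed under alternatives, 0 changed sign, and the 3 genes kept their order of level under each alternative run. A change of the total cannot alter the order within a library. Every alternative used only reads that fit 1 place, so none can show the order with the reads set apart at Mir486. Scaled to all reads of the table instead of microRNA counts, mean CPM was 14.9 for Mir144, 200 for Mir451a and 37.5 for Mir486, and the list sums were 215 (erythroid), 3903 (red cell abundant but broad), 323 (leukocyte), 58059 (muscle), 6.86 (cardiac), 23105 (endothelial), 98.7 (liver) and 23835 (erythropoiesis-linked). With unstranded counts, the sums moved beyond the replicate SD for leukocyte (1243, from the opposite-strand counts at Mir142b), muscle (102876), endothelial (40982) and erythropoiesis-linked genes (42284). The log2 ratio of Mir451a passed 2-fold at 1.07 with library totals, against 11.5% of all detected genes. At 0.83 it passed a fold minimum of 1.5, against 19.7% of them. Its other alternatives gave 0.81 to 0.91. For Mir144 the range was 0.19 to 0.45, with an adjusted binomial p of 5.24e-04 under library totals, and for Mir486 it was -0.57 to -0.31. The 27 genes called became 42 with library totals, 15 with a count minimum of 50 and 72 with a fold minimum of 1.5. TMM in place of library totals moved all log2 ratios by -0.25. With library totals, 41 of the calls were higher in replicate 1 and 1 in replicate 2, against 23 and 4 with TMM. Leaving out 1 replicate gave 25.3 to 34.6 CPM for Mir144, 260 to 548 for Mir451a and 66.9 to 82.7 for Mir486. It gave 10.3 to 15.9 for the ratio of Mir451a to Mir144 and 3.15 to 8.20 for that of Mir451a to Mir486, so each library alone moves that last ratio from its mean of 5.67. The mean was 5.14 with both strands. No paired analysis was possible because both libraries belong to 1 group. At 275 and 274 counts of Mir144, counting error alone spanned -0.04 to 0.45 on the log2 scale with TMM and 0.20 to 0.70 with library totals.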
